A study of Homo sapiens with 6 samples.

Results

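The 35 genes described here encode the proteins of glycolysis, of pyruvate entry into mitochondria and of the pentose phosphate pathway, with the transporters and regulatory enzymes beside them. They were chosen by name for their place in these pathways, with no rule on their measured values, but with earlier results of these data known. Of the 35, 35 were found among the 58174 genes of the expression table. The cells were labelled AGS, a gastric adenocarcinoma line of human origin. The 3 RNA libraries of 1 group came from cells given a negative control siRNA (si-NC) and the 3 of the other from cells given an siRNA against FTO (si-FTO), the RNA demethylase that removes methyl groups from adenosine. The sample labels also carry a genotype, wild type in si-NC and FTO-/- in si-FTO, whereas the titles and the methods of the study name siRNA, and the values could not tell which holds.

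The values are TPM, a scale on which the transcripts of a library have a fixed sum, as the authors' mean over the libraries of each group. With 1 mean per group, the spread between libraries could not be computed and no difference was tested here. Every difference given is therefore a description of 2 means, and TPM holds no information on sequencing depth. Differences are given as the ratio of the mean TPM values or as log2 ratios of si-FTO over si-NC, computed on TPM plus a pseudocount of 1, which makes the ratios of low genes smaller. A gene was compared when its mean TPM was at least 0.5 in at least 1 group, which 20493 genes met, and it was called higher or lower when the log2 ratio was at least 1 in size. A deposited value of 0.0001 was read as 0, and such a gene is described as listed at 0. The median log2 ratio of all compared genes was -0.20, and the members were also compared after median-ratio scaling, which removes a shift of -0.21.

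Glycolysis turns glucose into pyruvate in the cytosol, and its controlled steps are those of hexokinase, phosphofructokinase and pyruvate kinase. Pyruvate is then reduced to lactate and exported with a proton, oxidised to acetyl-CoA by the pyruvate dehydrogenase complex, or carboxylated to oxaloacetate by pyruvate carboxylase. The pentose phosphate pathway branches off after hexokinase, and supplies NADPH and ribose phosphate. Many tumour cells, those of gastric carcinomas among them, take up glucose and release lactate even when oxygen is present.

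FTO, the depleted gene (ENSG00000140718), had 33.1 TPM in si-NC and 7.27 TPM with si-FTO, 4.56-fold lower. The cell line label was set against 20 epithelial markers, and much of that list was near 0 in the group labelled si-NC. The 20 markers summed to 71.2 TPM in si-NC and to 5389 in si-FTO. KRT18, a keratin and the most abundant marker in si-NC, had 52.1 TPM there and 1851 TPM in the si-FTO group. KRT8, its partner keratin, had 10.8 TPM in si-NC and was the most abundant marker in si-FTO, with 3139 TPM. KRT7 was listed at 0 in si-NC and had 253 TPM in si-FTO. Of the 20 markers, 7 were listed at 0 in si-NC against 3 in si-FTO, and 6 and 8 reached 1 TPM. The adhesion proteins EPCAM and CDH1 were low in both groups, with 1.22 and 3.67 TPM in si-NC and 0.113 and 0.685 in si-FTO. The groups thus differed in epithelial genes as well as in FTO, and whether both held the same line was not tested. The part of these markers in the differences described here was not tested, and in bulk RNA a change in the cells and a change in RNA per cell cannot be told apart.

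Most of the 35 genes were abundant in both groups and differed by less than the fold used for a call. Of the 35, 34 passed the filter, and each of the 34 reached 0.5 TPM in both groups. FBP1, the fructose bisphosphatase of gluconeogenesis, did not pass: it had 0.297 TPM in si-NC and was listed at 0 in si-FTO. Called higher in si-FTO were 5 of the 34 (SLC16A3, PC, PDK4, SLC2A3 and TKT), or 14.7%, beside 11.4% of all compared genes. Called lower was 1 of the 34 (HK1), or 2.94%, beside 17% of all compared genes. The remaining 28 lay within the fold. The members were more abundant than most genes, and among the 2000 genes with at least 100 TPM in at least 1 group, 17.8% were higher and 9.5% lower. The 20 members at that level had 3 higher and 0 lower. The median log2 ratio of the 34 was 0.02, with 17 above 0 and 17 below. As deposited, 22 of the 34 lay above the median of all compared genes, but this depended on the scale. Relative to that median, the median of the members was 0.22 as deposited and 0.25 after median-ratio scaling. After quantile normalization it was -0.027.

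The calls at the edge of the fold depended on the scale. Under median-ratio scaling 9 members were higher and 0 lower, beside 13.6% and 14.1% of all genes compared on that scale. The 5 higher members were among the 9, and PFKP, PFKM, PGK1 and PKM joined them, while HK1 was no longer past the fold. For 6 members with log2 ratios of at most 0.18 in size (ALDOA, TPI1, LDHA, LDHB, PDK1 and TALDO1), the sign turned under at least 1 scaling, so no direction is given for them.

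**Figure D1:**
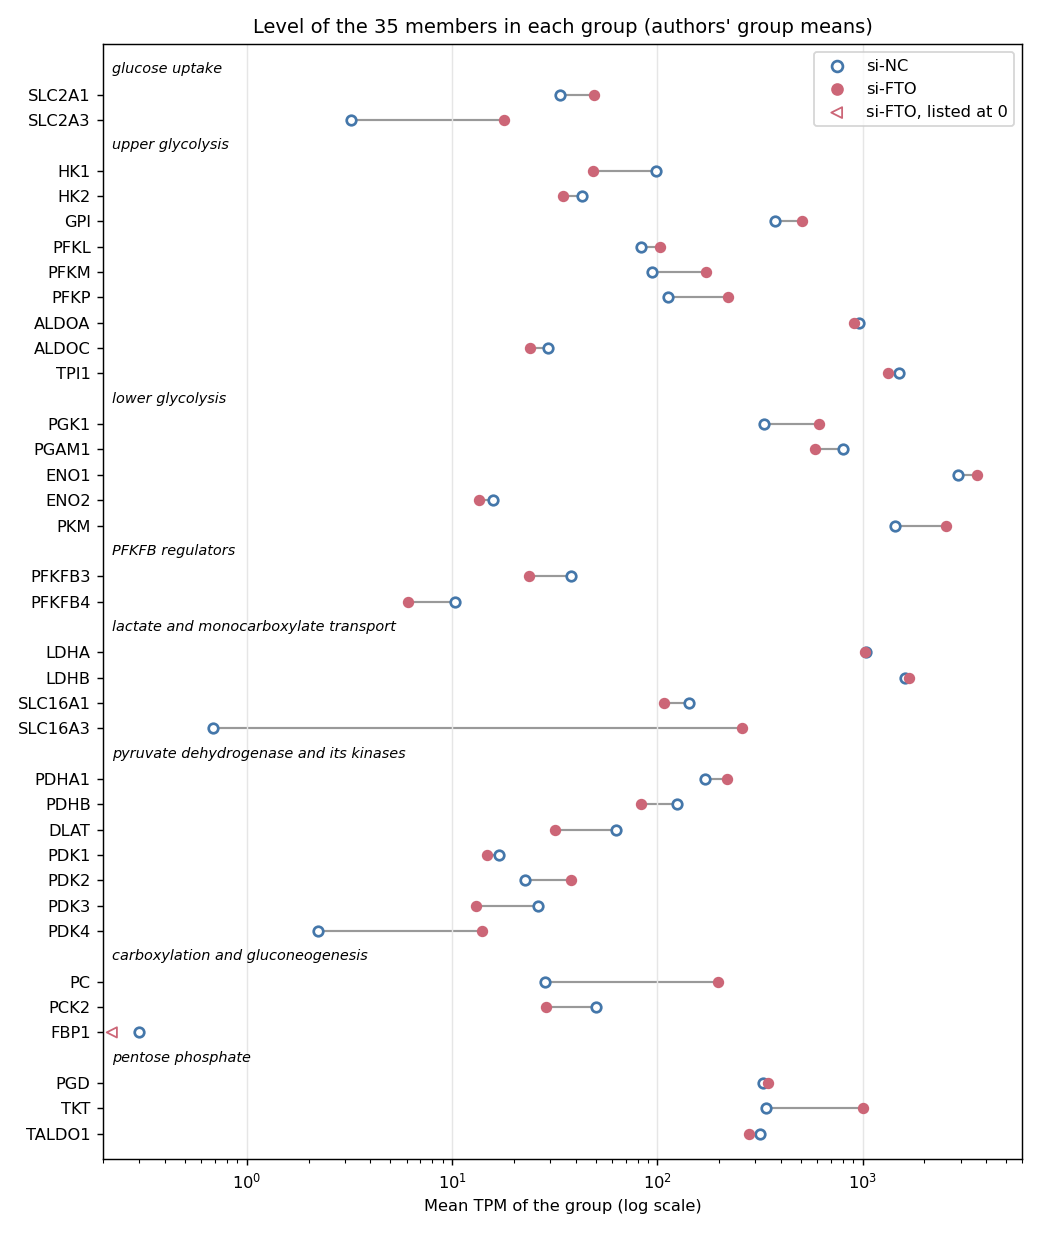
Mean TPM of each of the 35 genes in si-NC (open circles) and si-FTO (filled circles) on a log axis, 1 authors' mean per group, ordered by role; a triangle marks FBP1, listed at 0 in si-FTO. The line is longest for SLC16A3, from 0.683 to 257 TPM, while the markers of LDHA and LDHB nearly coincide.

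The levels of the members spanned from under 1 TPM to over 1000 TPM. ENO1, the main enolase, was the most abundant member in both groups, with 2905 TPM in si-NC and 3619 in si-FTO. At least 1000 TPM was reached by 5 members in si-NC against 6 in si-FTO, and at least 10 TPM by 31 and 33. SLC16A3 was the member that moved furthest in the order of all genes, from rank 17659 in si-NC to rank 542 in si-FTO. PC moved from rank 5463 to rank 742.

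Both glucose transporters among the 35 were higher in si-FTO on each scale tried, whereas others on the lists were lower. SLC2A1 (GLUT1), the basal transporter of most dividing cells, had 33.4 TPM in si-NC against 49.2 in si-FTO, a log2 ratio of 0.54. SLC2A3 (GLUT3, ENSG00000059804), a transporter of high affinity known from neurons, lies on the minus strand of chromosome 12 from 8071826 to 8171603 in hg19. It had 3.23 TPM in si-NC and 17.8 in si-FTO, 5.53-fold higher. With a pseudocount of 5, its log2 ratio of 2.16 became 1.47. SLC2A14, its near-identical neighbour, with which reads could be shared and which was looked at after the values were seen, had 0.141 and 0.110 TPM. SLC2A3 made up 7.51% of the summed TPM of SLC2A1 to SLC2A4 in si-NC and 25.9% in si-FTO. SLC2A4, the insulin-regulated transporter, went from 14.6% to 2.59%, and SLC2A2 was listed at 0 in both groups. Outside these 4, SLC2A12 had 8.05 TPM in si-NC against 0.234 in si-FTO, and SLC2A10 had 3.14 and 0.00830, both past the fold. SLC2A8 had 27.8 and 14.03 TPM, a log2 ratio of -0.94.

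Upper glycolysis opened with the only member called lower. HK1 (ENSG00000156515), the hexokinase of most tissues, which binds mitochondria, lies on the plus strand of chromosome 10 from 71029740 to 71161640. It had 98.9 TPM in si-NC and 48.8 in si-FTO. Its log2 ratio of -1.003 was just past the fold, and it was -0.79 under median-ratio scaling and -0.95 with a pseudocount of 5. HK2, the inducible hexokinase of many tumours, had 42.7 and 34.7 TPM, so that its share of the summed TPM of HK1, HK2, HK3 and HKDC1 was 30.2% in si-NC against 41.5% in si-FTO. HK3 and HKDC1 were each under 0.2 TPM in both groups.

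Phosphofructokinase, the committed step, had higher TPM in si-FTO for each of its 3 subunits. PFKP, the platelet form, had 113 TPM in si-NC against 221 in si-FTO, a log2 ratio of 0.97 that lay just inside the fold. Relative to the median of all compared genes it was 1.17. PFKM, the muscle form, had 93.6 and 172 TPM, and PFKL, the liver form, had 83.0 and 104. The 3 subunits summed to 289 TPM in si-NC and to 496 in si-FTO, and PFKP held the largest share in both groups, 38.9% and 44.5%. Both PFKFB members, of the family that makes and breaks the fructose bisphosphate that activates phosphofructokinase, were lower in si-FTO. PFKFB3, the form with the strongest kinase activity, had 37.9 TPM in si-NC against 23.6 in si-FTO, and PFKFB4 had 10.3 and 6.11. Their log2 ratios were -0.66 and -0.67. PFKFB2, outside the 35, was on the other side, with 10.9 and 14.2 TPM and a log2 ratio of 0.35.

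The other enzymes of upper glycolysis lay within the fold. GPI, which turns glucose phosphate into fructose phosphate, had 372 TPM in si-NC and 505 in si-FTO. ALDOA, the main aldolase, had 964 and 905 TPM and made up 97.1% and 97.4% of aldolase TPM. ALDOC, the brain aldolase, had 29.2 and 24.0 TPM, and TPI1, the triose phosphate isomerase, had 1498 and 1323.

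In lower glycolysis the members were within the fold, with 3 of 5 above 0. PGK1, the kinase of the first ATP-yielding step, had 332 TPM in si-NC and 615 in si-FTO, 1.85-fold higher. PKM, the pyruvate kinase of most tissues, had 1434 and 2546 TPM, 1.78-fold higher. Gene-level TPM does not separate its spliced forms. PKLR, the pyruvate kinase of liver and red cells, had 0.0176 TPM in si-NC and was listed at 0 in si-FTO. PGAM1, the phosphoglycerate mutase, went the other way, with 801 and 585 TPM. ENO1 had a log2 ratio of 0.32, and ENO2, the neuronal enolase, had 15.8 and 13.6 TPM. GAPDH, often used as a reference gene and outside the 35, had 5304 TPM in si-NC and 8518 in si-FTO, 1.61-fold higher.

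The steps from hexokinase to lactate dehydrogenase, GAPDH included, summed to 16726 TPM in si-NC and to 21929.6 in si-FTO, 1.31-fold higher. Without GAPDH the sums were 11422 and 13412 TPM, 1.17-fold higher, a comparison chosen after the values were seen. The sums with GAPDH are 1.67% and 2.19% of all TPM. Counted from glucose uptake to lactate transport, 9 of 13 steps had higher summed TPM in si-FTO as deposited, 11 after median-ratio scaling and 8 after quantile normalization. Aldolase, triose-phosphate isomerase and lactate dehydrogenase changed side between these scales. Hexokinase and phosphoglycerate mutase had lower sums in si-FTO on each of them. The ratio was larger for hexokinase, 1.69-fold, with 142 TPM in si-NC against 83.6 in si-FTO, than for phosphoglycerate mutase, 1.37-fold.

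**Figure D2:**
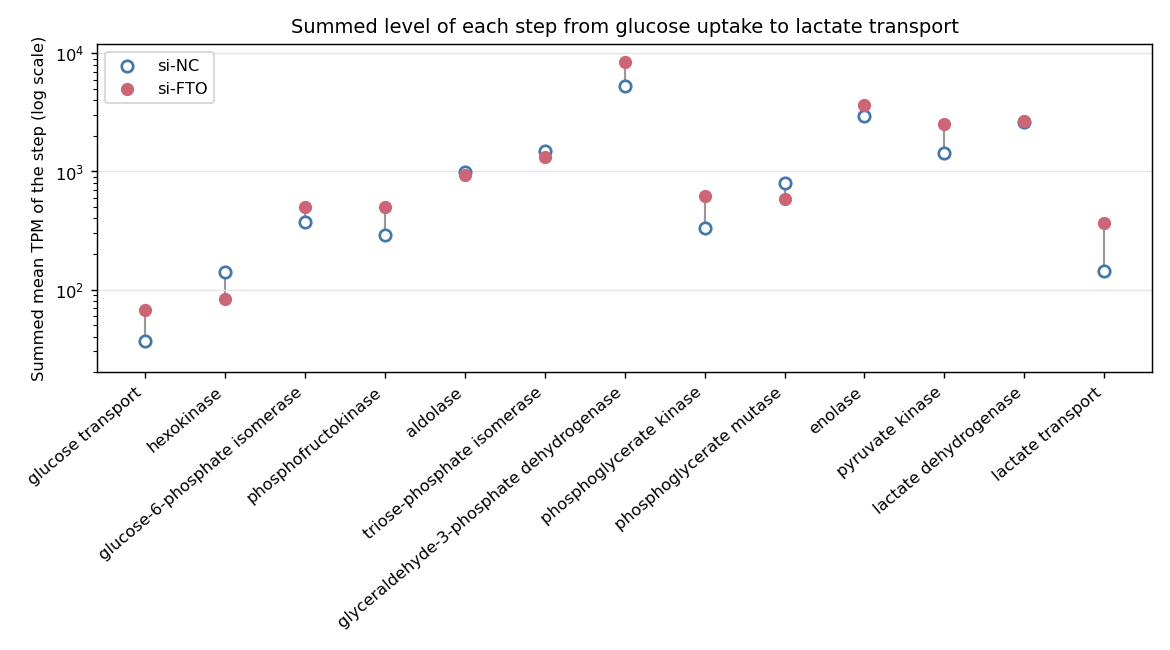
Summed mean TPM of the genes of each step, on a log axis, in pathway order from glucose uptake to lactate transport, with si-NC as open and si-FTO as filled circles; sums are over the 35 genes, and GAPDH is added. Hexokinase lies lower in si-FTO (83.6 beside 142 TPM), and phosphoglycerate kinase, pyruvate kinase and lactate transport lie higher.

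Lactate dehydrogenase was at nearly equal level in both groups, whereas its exporter was not. LDHA had 1040.3 TPM in si-NC against 1022 in si-FTO, and LDHB, the form that prevails in heart, had 1599.9 and 1675. LDHB was the more abundant form in both groups, with 60.5% and 62.1% of lactate dehydrogenase TPM. LDHC, the testis form, had 6.17 TPM in si-NC and was listed at 0 in si-FTO.

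SLC16A3 (MCT4, ENSG00000141526), the low-affinity transporter that exports lactate from glycolytic cells, lies on the plus strand of chromosome 17 from 80175810 to 80219005. It had 0.683 TPM in si-NC and 257 in si-FTO, 377-fold higher. Its log2 ratio was 7.26 with a pseudocount of 1, 8.36 with 0.1 and 5.53 with 5, and it was past the fold at each setting. SLC16A1 (MCT1), the transporter of most tissues, had 143 TPM in si-NC and 108 in si-FTO. As a result of both values, SLC16A1 held 97.6% of the summed TPM of the 4 monocarboxylate transporters in si-NC, and SLC16A3 held 69.2% in si-FTO. BSG, the chaperone that brings both transporters to the cell surface, had 708 and 1284 TPM, a log2 ratio of 0.86 that became 1.07 after median-ratio scaling, and was looked at after its values were seen. The 50 compared genes nearest to SLC16A3 on its chromosome had a median log2 ratio of -0.14, with 3 higher and 6 lower, where 11.4% and 17% of all compared genes were. CSNK1D, which overlaps SLC16A3 on the opposite strand with 482 shared exon bases, had 106 and 83.2 TPM. Of the 10 epithelial markers that were compared, 8 were higher and 1 lower between the same groups, and their part in the SLC16A3 difference was not tested.

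Promoters are shown because SLC16A3 and many of its pathway partners are known targets of HIF-1, the hypoxia-inducible factor, which binds ACGTG or GCGTG. RefSeq promoters of GRCh38.p14, from 250 bases before to 50 after each start, were found for 33 of the 35 members, with no entry for SLC2A3 and SLC16A1. Of the 63 windows of these 33 members, 23 held ACGTG on either strand, or 36.5%, beside 21.4% of all 35116 promoters. GCGTG was found in 41.3% of the member windows and 36.5% of all, and the E-box CACGTG, bound by MYC and USF and overlapping ACGTG, in 11.1% and 7.26%. Some genes have several windows, which can overlap. The 33 members had 63 windows, and all 27305 genes had 35116, so the members had more windows per gene. A count of genes with at least 1 window therefore favours the members. Counted by gene, 19 of the 33 members held ACGTG in at least 1 window, beside 24.9% of 27305 genes. For GCGTG it was 22 of the 33 beside 40.6%, and for CACGTG 7 of the 33 beside 8.77%. Among the 5 windows of SLC16A3, 1 held ACGTG, with the first base at -68 and at -55. LDHA held ACGTG at 5 positions of 1 window, which include both strands of 2 E-boxes. PGK1 held it at 3 positions, 1 of them after the start. The stretches before these starts were matched to GRCh37 and hold no annotated exon, and ACGTG and GCGTG of either strand are in capitals. That of SLC16A3, chr17:80186668-80186917 on the plus strand, lies inside the annotated gene, between exons. That of PGK1, chrX:77359495-77359744 on the plus strand, also lies inside its gene, between exons. That of LDHA, chr11:18415860-18416106 on the plus strand, lies directly before the annotated gene.
SLC16A3: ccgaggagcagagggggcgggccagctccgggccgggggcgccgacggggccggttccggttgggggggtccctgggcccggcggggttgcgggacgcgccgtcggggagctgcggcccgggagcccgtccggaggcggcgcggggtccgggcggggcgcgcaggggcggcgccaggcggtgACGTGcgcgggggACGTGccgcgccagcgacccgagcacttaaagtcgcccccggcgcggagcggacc
PGK1: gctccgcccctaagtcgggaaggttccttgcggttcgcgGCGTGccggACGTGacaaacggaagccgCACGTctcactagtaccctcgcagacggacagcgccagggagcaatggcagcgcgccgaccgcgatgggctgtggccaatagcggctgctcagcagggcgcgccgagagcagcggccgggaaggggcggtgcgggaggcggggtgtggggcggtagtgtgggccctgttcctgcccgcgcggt
LDHA: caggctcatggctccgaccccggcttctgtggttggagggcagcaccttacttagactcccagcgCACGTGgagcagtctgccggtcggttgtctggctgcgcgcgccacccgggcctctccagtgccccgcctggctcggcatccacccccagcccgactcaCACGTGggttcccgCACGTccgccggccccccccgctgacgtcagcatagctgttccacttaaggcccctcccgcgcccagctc

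A match is a description of the sequence. Binding was not measured, and the motifs were not tested against the ratios.

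**Figure D3:**
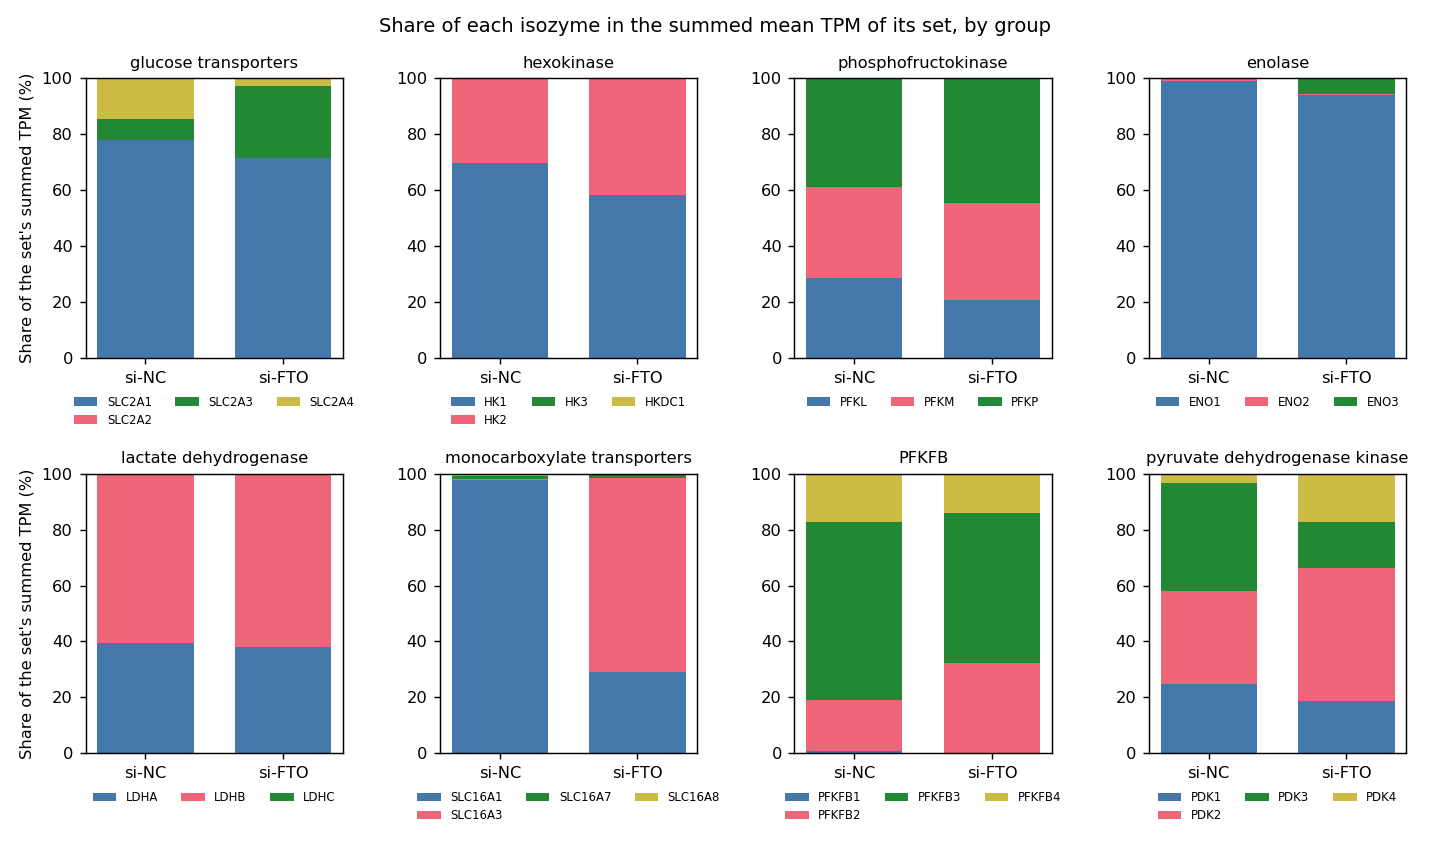
Share of each gene in the summed mean TPM of its isozyme set, in percent, for si-NC and si-FTO, 1 panel per set drawn. Aldolase, pyruvate kinase, transketolase, phosphoenolpyruvate carboxykinase and fructose bisphosphatase are not drawn. The monocarboxylate transporters pass from 97.6% SLC16A1 in si-NC to 69.2% SLC16A3 in si-FTO, and in the kinases of pyruvate dehydrogenase the leading gene passes from PDK3 to PDK2.

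The pyruvate dehydrogenase complex links glycolysis to the citric acid cycle. Its core subunits differed in direction but stayed within the fold. PDHA1, the catalytic alpha subunit, had 171 TPM in si-NC and 219 in si-FTO. PDHB, the beta subunit, had 125 and 83.2, and DLAT, the acetyltransferase core, had 62.5 and 31.7, a log2 ratio of -0.96. PDHX and DLD, the remaining subunits, had log2 ratios of 0.15 and -0.32.

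The 4 kinases that switch this complex off exchanged their order. PDK3 led in si-NC with 26.2 TPM and had 13.1 in si-FTO. PDK2 led in si-FTO with 38.1 TPM and had 22.6 in si-NC. PDK4 (ENSG00000004799), the kinase induced in fasting and by fatty acids, lies on the minus strand of chromosome 7 from 95212811 to 95225828. It had 2.23 TPM in si-NC against 14.0 in si-FTO, 6.27-fold higher, and its log2 ratio of 2.21 became 1.39 with a pseudocount of 5. PDK1, the hypoxia-induced kinase, had 16.9 and 14.8 TPM. The shares of PDK3 and PDK4 in the kinases were 38.6% and 3.28% in si-NC, and 16.4% and 17.5% in si-FTO. The summed TPM of the 4 kinases was 67.9 and 80.0. The sole RefSeq promoter window of PDK4 holds neither ACGTG nor GCGTG.

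Pyruvate reaches the mitochondrial matrix through a carrier made of MPC1 and MPC2, both outside the 35. MPC1 (ENSG00000060762) had 86.8 TPM in si-NC against 27.6 in si-FTO, 3.15-fold lower, and MPC2 had 98.3 and 65.2. Both subunits were lower in si-FTO on each scale tried, and MPC1 was past the fold on each.

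PC (ENSG00000173599), the mitochondrial enzyme that carboxylates pyruvate and refills the citric acid cycle, had 28.4 TPM in si-NC and 197 in si-FTO, 6.94-fold higher. It lies on the minus strand of chromosome 11 from 66615888 to 66725857. Its log2 ratio was 2.75, and it lay between 2.60 and 2.96 over the settings tried. The 50 compared genes around it had a median log2 ratio of 0.22, with 13 higher and 4 lower, where 11.4% and 17% of all compared genes were. LRFN4, a gene on the opposite strand within PC that shares 621 exon bases with it, had 37.2 TPM in si-NC against 150.2 in si-FTO, a log2 ratio of 1.98. Whether reads were counted by strand is not stated, so the values of PC and LRFN4 are uncertain to that extent. PC has 3 RefSeq promoter windows, and 1 of them holds ACGTG, at -184 and -163. The stretch before that start, shown for comparison with SLC16A3, lies directly before the annotated gene on the minus strand, chr11:66725858-66726104 in GRCh37, and ACGTG is in capitals.
PC: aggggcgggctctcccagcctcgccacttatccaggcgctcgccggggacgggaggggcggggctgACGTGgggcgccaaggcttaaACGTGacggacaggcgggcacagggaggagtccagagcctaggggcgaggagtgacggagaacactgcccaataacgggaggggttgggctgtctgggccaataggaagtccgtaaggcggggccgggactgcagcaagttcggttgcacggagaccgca

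PCK2, the mitochondrial enzyme that turns oxaloacetate into phosphoenolpyruvate, was on the other side of 0 from PC, with 50.5 TPM in si-NC and 28.6 in si-FTO. It held 99.4% and 98.7% of the summed TPM of PCK1 and PCK2. The fructose bisphosphatases were near 0, with FBP2 at 0.0601 and 0.0280 TPM beside the values of FBP1 above.

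In the pentose phosphate pathway the largest difference among the members lay at transketolase. TKT (ENSG00000163931), the transketolase that links the pathway back to glycolysis, had 339 TPM in si-NC and 1008 in si-FTO, 2.97-fold higher. It lies on the minus strand of chromosome 3 from 53258728 to 53290068, and its log2 ratio of 1.57 lay between 1.55 and 1.78 over the settings tried. TKTL1 had 0.553 TPM in si-NC and was listed at 0 in si-FTO, and TKTL2 was listed at 0 in both. PGD, a dehydrogenase that yields NADPH, had 327 and 346 TPM. TALDO1, the transaldolase, had 317 and 279 TPM. PGD, TKT and TALDO1 summed to 983 TPM in si-NC and to 1633 in si-FTO, 1.66-fold higher, and TKT was the only 1 of the 3 past the fold on the scales tried. The sum was higher through TKT: PGD and TALDO1 alone, looked at after the values were seen, summed to 644 and 625 TPM. Of other enzymes of the pathway, RPIA had 47.6 and 31.1 TPM, RPE 37.4 and 30.3, and PGLS 62.9 and 97.9. The single promoter window of TKT holds none of the 3 motifs.

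**Figure D4:**
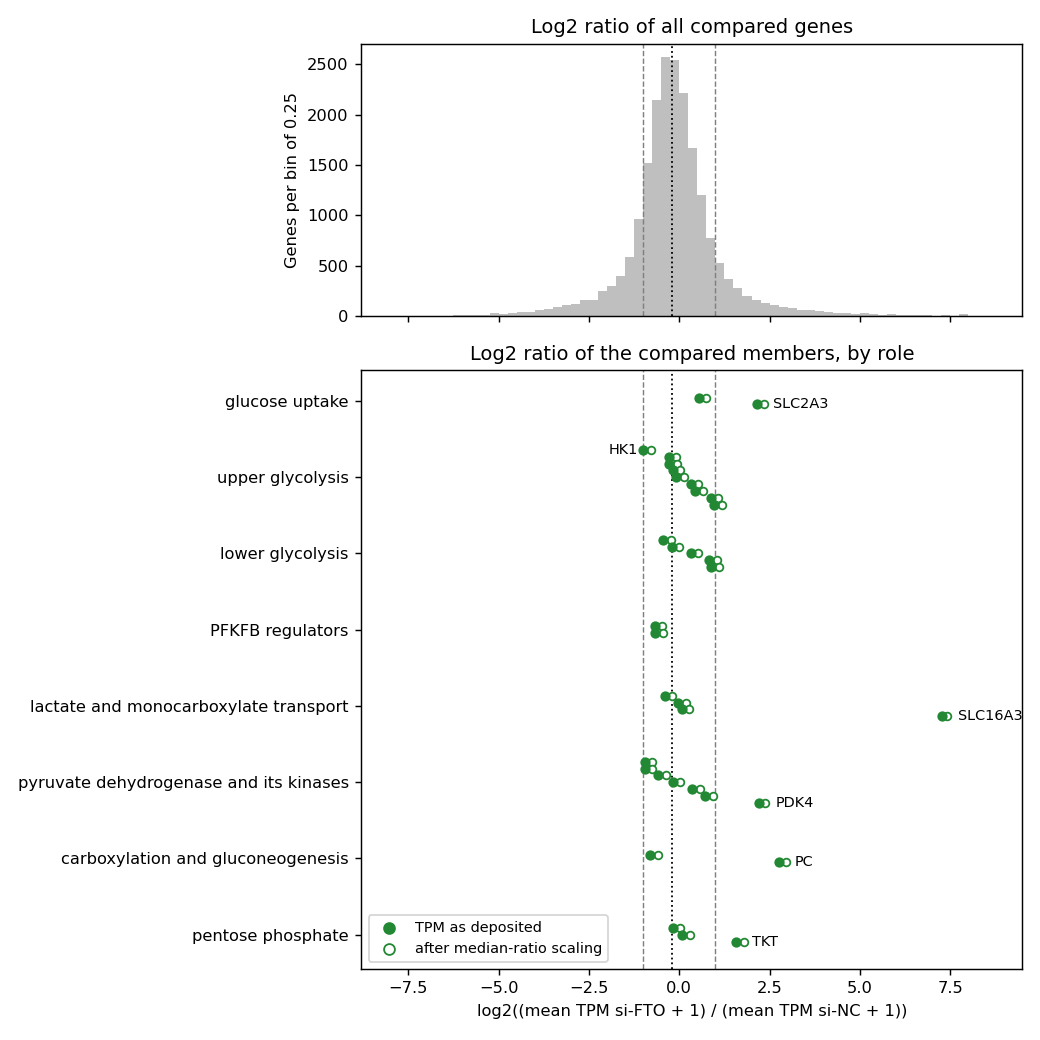
The top panel counts all 20493 compared genes by log2 ratio of si-FTO over si-NC, with values beyond 8 in size drawn at the ends. The lower panel gives the 34 compared members by role, as deposited (filled) and after median-ratio scaling (open), with the median of all genes (-0.20) dotted and the fold of 1 dashed. SLC16A3 lies at 7.26, and HK1 lies at -1.003 and inside the fold after scaling.

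Copies and overlaps touch several of these values. Processed pseudogenes took a small part of the TPM of their parents. PGAM4, a retrocopy of PGAM1 that lies within PGK1 on the opposite strand, had 29.6 TPM in si-NC and 22.9 in si-FTO. With it, the copies of PGAM1 made up 3.70% and 4.13% of the summed TPM of gene and copies. ENO1P4 had 13.1 and 4.09 TPM, and the 4 copies of ENO1 summed to 24.6 and 4.51. TPI1P1 had 8.76 and 6.68 TPM. LDHAP4 had 9.58 and 24.5 TPM, and the copies of LDHA made up 1.04% and 2.65%. The 65 copies of GAPDH summed to 16.5 and 15.3 TPM, with GAPDHP1 the most abundant. Reads that fit a gene and its copies could have been split between them, so the values of these copies are uncertain. Other members also share exon bases with genes on the opposite strand, and the uncertainty on strand applies to them too. SAMD14 shares 2113 with PDK2 and had 2.14 and 0.106 TPM. PIH1D2 shares 1004 with DLAT and had 3.88 and 2.17 TPM. MAP3K15 shares 956 with PDHA1 and had 5.56 and 1.02 TPM, and SENP1 shares 516 with PFKM and had 25.7 and 29.6.

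The genes around the other called members were also looked at. The 50 compared genes nearest to each had median log2 ratios of -0.24 for TKT, -0.04 for PDK4 and -0.17 for HK1. The median was 0.45 around SLC2A3. Of each 50, 6 were higher and 4 lower around TKT, 10 and 7 around PDK4, 10 and 10 around HK1, and 15 and 4 around SLC2A3, beside 11.4% and 17% of all compared genes.

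A list of 53 further genes of the same pathways held 37 that were compared, of which 4 were higher (10.8%) and 9 lower (24.3%), beside 11.4% and 17% of all compared genes. Their median log2 ratio was -0.30. ENO3 (ENSG00000108515), the muscle enolase, had 7.56 TPM in si-NC against 211 in si-FTO, 27.9-fold higher, and its share of enolase TPM went from 0.258% to 5.49%. PFN1, an abundant gene on the opposite strand that shares 111 exon bases with it, had 1105 and 1435 TPM. PGM1 and PGM2, the phosphoglucomutases that link glucose phosphate to glycogen, had opposite signs, with 62.2 and 139 TPM for PGM1 and 53.4 and 24.5 for PGM2. The call of PGM2 was lost under median-ratio scaling, at -0.88. Lower in si-FTO were also BPGM, which makes bisphosphoglycerate, with 33.7 and 13.9 TPM, and SLC37A4, the transporter of glucose phosphate into the endoplasmic reticulum, with 62.2 and 25.3. SHPK, the sedoheptulose kinase of the pentose branch, had 18.6 and 7.15 TPM, and its log2 ratio of -1.27 was -0.96 with a pseudocount of 5.

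Of 17 genes of glycogen and hexose side branches, 16 were compared, with 3 higher (18.8%) and 1 lower (6.25%), beside 11.4% and 17% of all compared genes. Their median log2 ratio was -0.23. UGP2, which makes UDP-glucose, had 45.2 TPM in si-NC against 124 in si-FTO, and GBE1, the glycogen branching enzyme, had 7.75 and 23.4. TKFC, a kinase that acts in fructose breakdown, had 29.9 and 67.0 TPM. GFPT2, an entry enzyme of the hexosamine pathway, was 7.08-fold lower in si-FTO, with 29.8 and 4.21 TPM.

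The regulators of these genes were also mixed in direction. Of 15 listed regulators, not all of them transcription factors, 4 were higher (26.7%) and 2 lower (13.3%), again beside 11.4% and 17% of all. The median log2 ratio of the 15 was 0.33. MYC, an activator of many glycolytic genes, had 20.7 TPM in si-NC and 63.2 in si-FTO, 3.05-fold higher. HIF1A, the oxygen-regulated subunit of HIF-1, which is controlled mainly as protein, had 44.5 and 88.0 TPM, a log2 ratio of 0.97 that passed the fold under median-ratio scaling, at 1.18. ESRRA and its coactivator PPARGC1A, both known for mitochondrial and fatty acid genes, had 38.3 and 3.02 TPM in si-NC and 83.4 and 13.9 in si-FTO. The arrestin-like proteins TXNIP and ARRDC4, both induced by glucose and known to limit glucose uptake, went in opposite directions. TXNIP had 17.6 TPM in si-NC and 80.4 in si-FTO, while ARRDC4 had 18.9 and 0.296. MLXIPL, a glucose-sensing factor that acts on both, had 19.0 and 6.66 TPM.

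Of 20 HIF-1 targets outside glycolysis, all of them compared, 4 were higher (20%) and 3 lower (15%), beside 11.4% and 17% of all compared genes, and their median log2 ratio was 0.10. DDIT4, an inhibitor of mTORC1, had 105 TPM in si-NC against 430.4 in si-FTO, and ADM, the adrenomedullin gene, had 10.3 and 28.9. NDRG1 was 5.83-fold lower in si-FTO, with 158 and 27.0 TPM. EGLN3, a prolyl hydroxylase of the HIF alpha subunits, had 15.6 and 6.09 TPM, and its call was lost with a pseudocount of 5, at -0.89. Each of the 4 lists had genes past the fold on both sides.

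**Figure D5:**
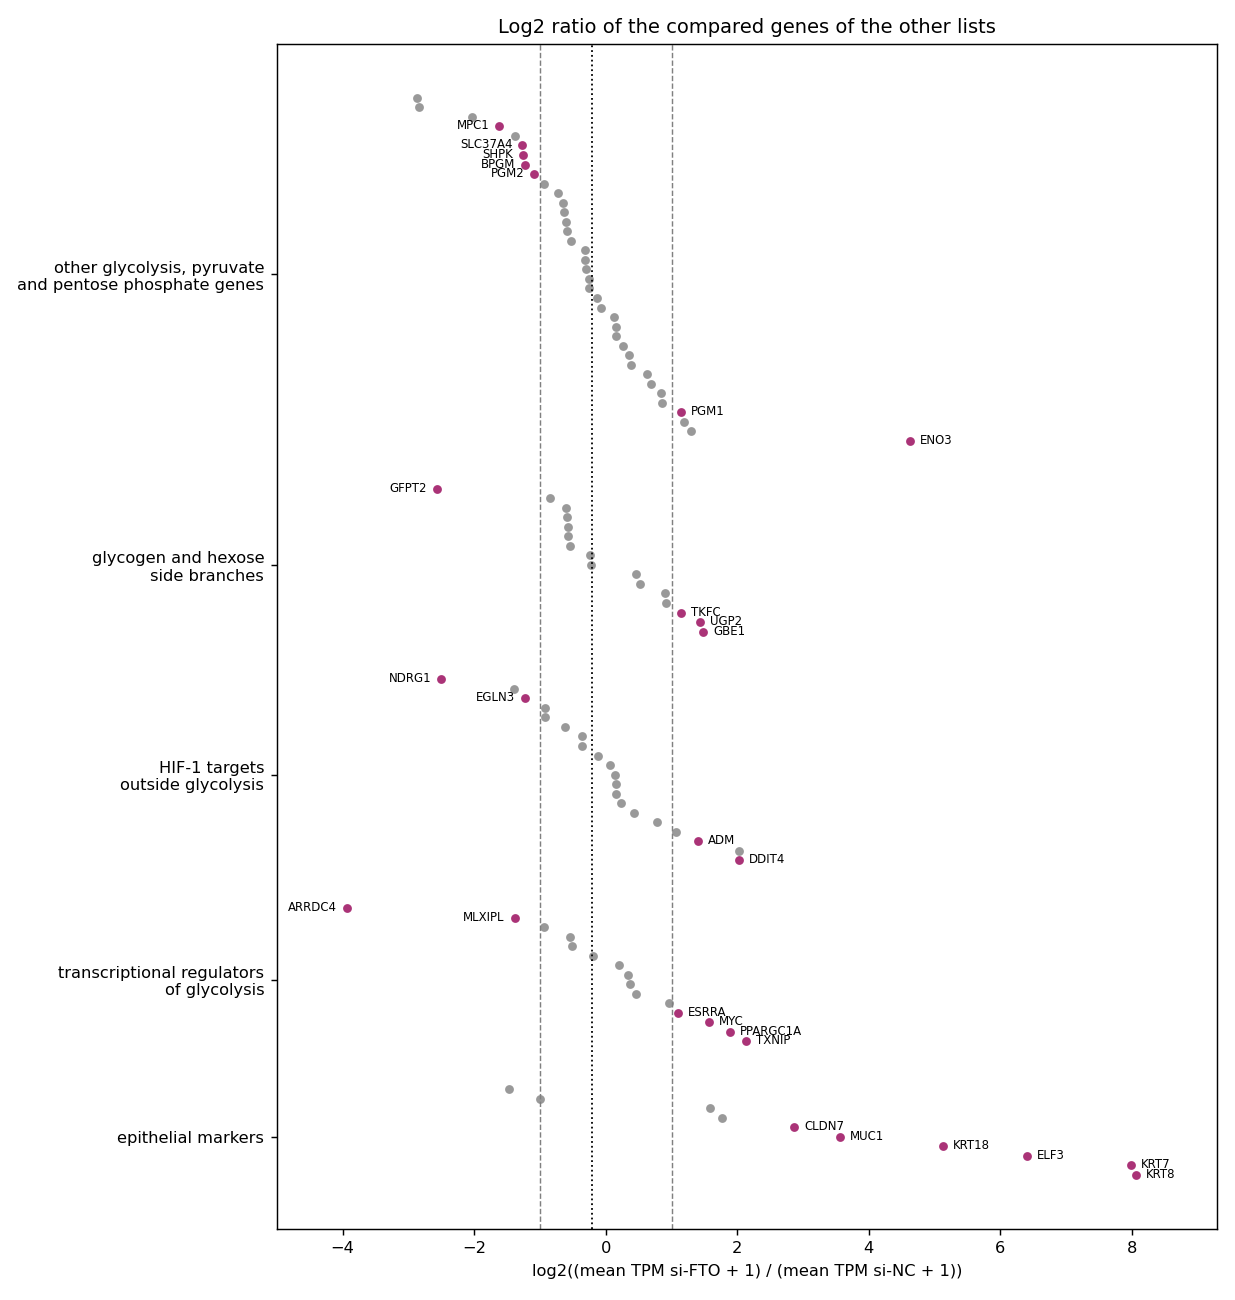
Log2 ratio of si-FTO over si-NC for each compared gene of the 4 other lists and of the epithelial markers, sorted within a list, with genes past the fold and at least 10 TPM in 1 group named. The dotted line is the median of all genes (-0.20) and the dashed lines are at 1 and -1. Each of the 4 lists has genes on both sides, and the 6 named epithelial markers lie at 2.86 or higher.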

How the data were processed

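According to the study's methods, Bowtie (on hg19) and RSEM were used for mapping and quantification, and the submitters' processing notes also name HISAT2. Versions, annotation and strand settings are not given in the sources used here. The deposited TPM values are the authors' mean over the 3 libraries of each group, and no column of values per library was used. The table also holds the authors' log2 ratio, p-value and q-value for each gene, which were not used, and a second table with a subset of these genes was left out.

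Ensembl identifiers were mapped to symbols for 55726 of 58174 genes. A value of 0.0001 was read as 0. Log2 ratios of TPM plus 1 were computed for the 20493 genes whose mean TPM reached 0.5 in si-NC, si-FTO or both. A limma test was planned in case values per library were given. With 1 mean per group, no test, interval or p-value could be computed here, and depth is unknown. The authors' own p-values and q-values were left aside. The alternatives were pseudocounts of 0.1 and 5, no filter, minimum TPM of 5 or 10, median-ratio scaling, quantile normalization, rescaling without the 100 most abundant genes, and fold thresholds of 0.5 and 2.

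The genes named are FTO, each member past the fold, the most abundant member of each isozyme set, GAPDH, MPC1, MPC2, HIF1A, MYC, other listed genes past the fold with at least 10 TPM, and the most abundant pseudogenes. Other genes, named to complete a step or a list, were added after their values were seen. Of the genes listed at the start, 2 are not reported here, and they were left out of the lists and their counts. The members and lists were chosen with earlier results of these data known. Gene positions are those of GENCODE lifted to GRCh37. Overlap was counted in annotated exon bases. Python 3.11.15, numpy 2.4.6 and pandas 2.3.3 were used. The calculations were run on the si-NC means with set fold changes put in and no noise. That checks the arithmetic only, not the calls in these data.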

Additional observations from a re-analysis of the deposited data

How the results depend on the processing

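No paired analysis was possible because the table holds 1 mean per group; for the same reason no library could be left out and no replicate block could be run. The 5 higher members (SLC16A3, PC, PDK4, SLC2A3 and TKT) were past the fold under each change of pseudocount, filter and scaling. Median-ratio scaling gave 9 members higher and 0 lower, and a pseudocount of 5 also gave 0 lower, since the log2 ratio of HK1 lay so near to -1. A fold threshold of 0.5 gave 11 higher and 7 lower, beside 21.1% and 34.9% of all compared genes, and one of 2 gave 4 higher and 0 lower, beside 4.76% and 6.06%. The median log2 ratio of the members, 0.02, was 0.23 with median-ratio scaling, -0.0587 with quantile normalization and -0.0255 with no filter, which adds FBP1. The median of all genes was -0.20 as deposited, and -0.02, -0.03 and 0 in these settings. Relative to it, the members' median of 0.22 was 0.25 with median-ratio scaling, -0.027 with quantile normalization and -0.0255 with no filter. With no filter the median of all genes was taken over 58174 genes, including those under 0.5 TPM in both groups. That setting therefore compares the members with other genes than the main one does. The cause of the change with quantile normalization was not tested. A minimum of 10 TPM, chosen after seeing the data, changed neither count. The summed TPM of the glycolysis steps and of the pentose phosphate members stayed higher in si-FTO under each scaling. Without GAPDH the ratio of the glycolysis sum, 1.17, was 1.36 with median-ratio scaling and 1.12 with quantile normalization. Without TKT the ratio of the pentose sum, 0.971, was 1.12 with median-ratio scaling and 0.957 with quantile normalization, so the pentose sum was higher as deposited through TKT. The number of steps with higher sums, 9 of 13, was 11 with median-ratio scaling, 8 with quantile normalization and 9 without the 100 most abundant genes. These comparisons of sums without a gene and of steps were chosen after seeing the data. Of the 42 genes of the naming rule that were followed over the settings, 28 were past the fold, and 24 of these kept their side and sign at each change of pseudocount, filter and scaling, and the exceptions are HK1, PGM2, SHPK and EGLN3. No sign was turned among these 28. Among the same 42 genes the log2 ratio of ARRDC4 varied most, from -5.58 with a pseudocount of 0.1 to -2.17 with 5. TPM without depth or spread limits every value: how far a ratio near the fold could move between libraries cannot be told from the 2 means.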
